A study of Mus musculus with 8 samples.

Results

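Leukocyte recruitment is described here through 10 genes, chosen by symbol from the 54532 genes of the table: the chemokine genes Ccl2, Cxcl1, Cxcl2, Cxcl10 and Cxcl12, the endothelial adhesion genes Icam1, Icam2 and Vcam1, and the selectin genes Sele and Selp. Each symbol matched 1 gene. Total brain RNA was sequenced from wild-type (WT) mice and from mice with cerebral amyloid angiopathy (CAA), in which amyloid-beta is deposited in the walls of brain vessels, after mock treatment or chronic restraint stress. The 4 groups (WT mock and CAA mock, WT stress and CAA stress) hold 2 libraries each, named by group and replicate number (WT stress 1). The animals had been perfused with PBS, which washes blood from the vessels. The alleles that give CAA, the strain, age and sex of the mice, the length of the stress and the brain region sampled were not stated in the sources used. No label ties a library to an animal of its own. In WT mock and in CAA stress the 2 libraries differed in sex by Xist, and so came from different animals; for WT stress and CAA mock this is not shown, and there the spread behind the p-values may be technical.

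White cells leave the blood in steps. Selectins on activated endothelium (E-selectin from Sele, P-selectin from Selp, the latter also stored in platelets) slow the cells, chemokines held on the vessel wall activate their integrins, and the integrins then hold on to ICAM-1, ICAM-2 and VCAM-1. CXCL1 and CXCL2 draw neutrophils through CXCR2, CCL2 draws monocytes through CCR2, and CXCL10 draws activated T cells through CXCR3. In brain these 4 chemokines are low at rest and are induced by inflammatory signals through NF-kB or interferons, whereas CXCL12 and ICAM-2 are made constitutively.

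The libraries held 17275201 to 18894657 counts. CPM below are counts scaled to library size with TMM factors, and 1 count is worth 0.0536 to 0.0584 CPM. By counts of Xist, the RNA of the inactive X chromosome, WT mock 1 and CAA stress 1 were female and the other 6 male. Striatal markers were low in WT mock 1 and CAA mock 2 (12 genes summing to 217 and 194 CPM, against 807 to 1594 CPM in the others), and choroid plexus markers were high in WT stress 2 and CAA stress 1 (16 genes, 564 and 455 CPM, against 21.2 to 211 CPM). The 18 endothelial markers were all detected in every library and summed to 272 to 415 CPM. WT stress 1 stood apart in red cell genes: its 4 hemoglobin genes had 2081 counts, against 41 to 301 in the other 7 libraries. Results that rest on that library are given with and without it where such a fit was run.

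On the length-corrected FPKM scale the genes ran from Cxcl12 and Vcam1 down to near-silent ones. The median FPKM over the 8 libraries was 4.51 for Cxcl12 (range 2.25 to 5.60) and 3.26 for Vcam1 (2.92 to 4.62). It was 0.787 for Icam2 (0.501 to 1.08) and 0.445 for Icam1 (0.255 to 1.17). The inducible chemokines came next, with medians of 0.120 for Ccl2, 0.0873 for Cxcl1 and 0.0834 for Cxcl10. Selp had a median of 0.0063, and Cxcl2 and Sele a median of 0. The ranges of neighbours in this order overlapped, except those of Vcam1 and Icam2, between which the level fell without overlap.

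**Figure D1:**
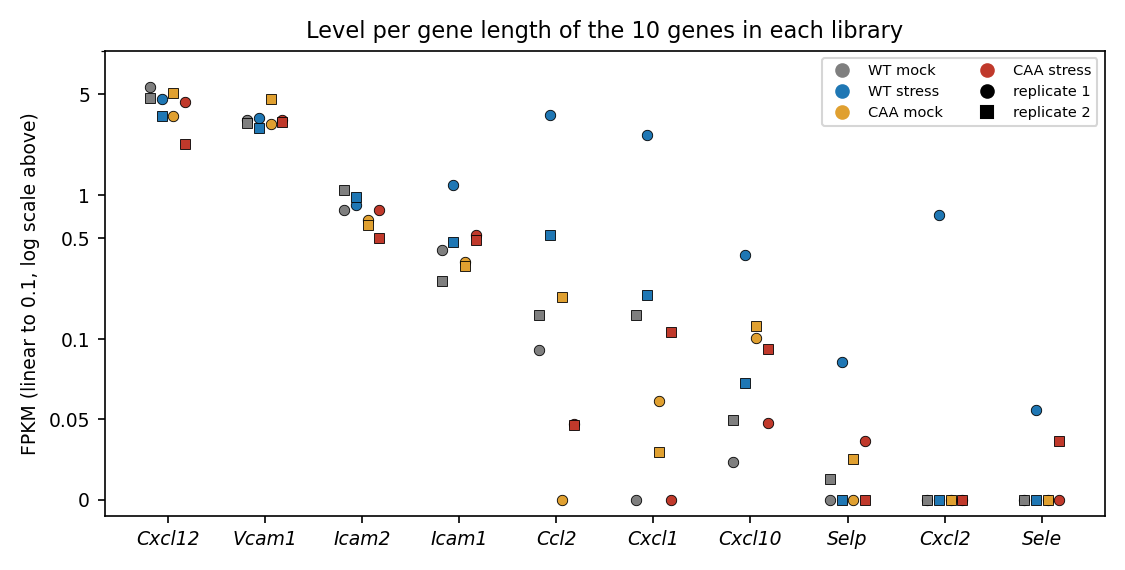
FPKM of the 10 genes (axis linear to 0.1 and on a log scale above), 1 point per library colored by group, in the order of their medians. Cxcl12 (median 4.51) and Vcam1 (3.26) lie above the others, and the highest points of Ccl2, Cxcl1 and Cxcl2 (3.57, 2.60 and 0.733) belong to WT stress 1.

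The inducible chemokines were high in 1 library. Cxcl1 (ENSMUSG00000029380, mm10 chr5:90891241-90893115, plus strand), a neutrophil attractant, had 0 and 5 counts in WT mock, 90 and 7 in WT stress, 2 and 1 in CAA mock, and 0 and 4 in CAA stress. WT stress 1 held 82.6% of all Cxcl1 counts, and its CPM was 12.8-fold that of the next library, WT stress 2. Cxcl2 (ENSMUSG00000058427, chr5:90903871-90905938, plus strand), the related attractant 10755 bases downstream of Cxcl1, had 28 counts in WT stress 1 and 0 in each of the other 7. A count of 0 was taken to allow up to 3 counts in a library. The CPM of Cxcl2 in WT stress 1 was 8.74-fold the highest such limit among the other 7. This ratio leaves out the counting error of the 28 counts, so it is not a lower bound.

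Ccl2 (ENSMUSG00000035385, chr11:82035571-82037453, plus strand), the monocyte attractant, had 2 and 3 counts in WT mock, 75 and 11 in WT stress, 0 and 4 in CAA mock, and 1 and 1 in CAA stress. Both WT stress libraries lay above the other 6, and WT stress 1 lay 6.77-fold above WT stress 2 in CPM. Cxcl10 (ENSMUSG00000034855, chr5:92346638-92348889, minus strand), the interferon-inducible attractant of T cells, had 1 and 2 counts in WT mock, 16 and 3 in WT stress, 4 and 5 in CAA mock, and 2 and 4 in CAA stress. Its highest value was again that of WT stress 1, 3.11-fold above the next library in CPM. All of Cxcl10 lies within Art3, a gene on the other strand with 348 counts over the 8 libraries and at most 59 in any. The overlap is that of whole gene spans, and exons were not compared. With the strandedness of the counting not stated either, whether reads of Cxcl10 and of Art3 were counted apart is not known.

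The exact Poisson intervals (95%, counting error only) of WT stress 1 were 72.4 to 110.6 counts for Cxcl1, 59.0 to 94.0 for Ccl2, 18.6 to 40.5 for Cxcl2 and 9.15 to 26.0 for Cxcl10. In WT stress 2 they were 2.81 to 14.4 for Cxcl1, 5.49 to 19.7 for Ccl2, 0 to 3.69 for Cxcl2 and 0.619 to 8.77 for Cxcl10. The intervals of the 2 WT stress libraries did not overlap for any of the 4 genes. In the 6 libraries outside WT stress, Ccl2, Cxcl1, Cxcl2 and Cxcl10 had 0 to 5 counts each, so a difference among WT mock, CAA mock and CAA stress was not detectable at this depth. Summed over the 4 genes, WT stress 1 had 209 counts, WT stress 2 had 21 and the other 6 libraries 3 to 10.

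**Figure D2:**
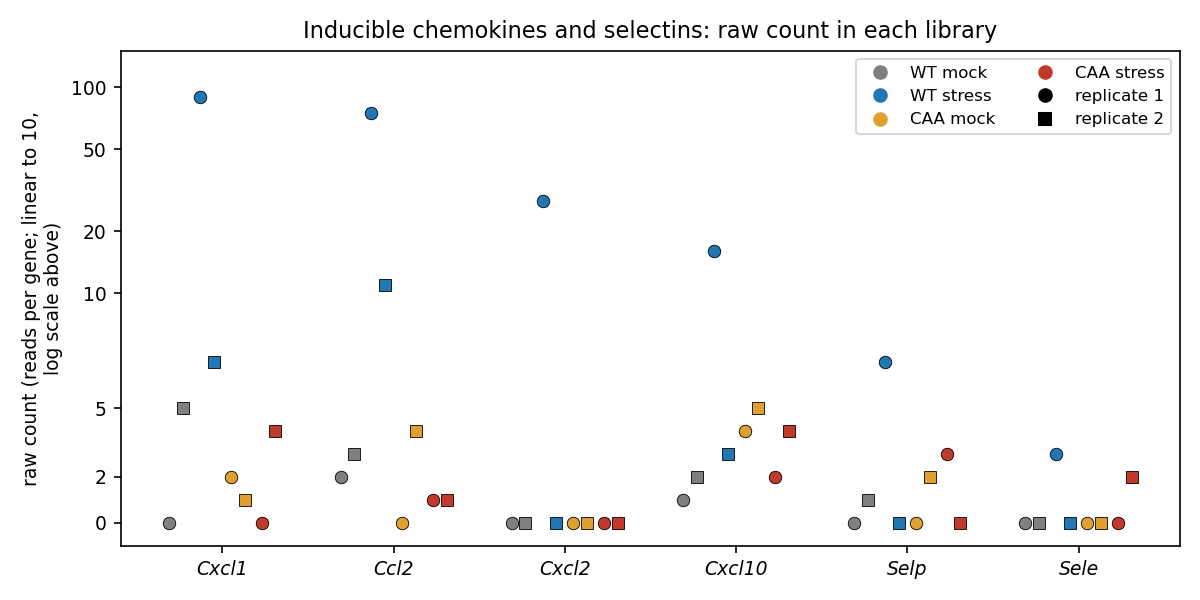
Raw counts per library of the genes with low counts (axis linear to 10 and on a log scale above), 1 point per library, colored by group. WT stress 1 is the highest library for each of Cxcl1 (90), Ccl2 (75), Cxcl2 (28), Cxcl10 (16), Selp (7) and Sele (3).

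Of the genes that were highest in WT stress 1, the promoters of 4 are printed because they hold the same short motif. RefSeq (GRCm38.p6, the assembly that mm10 names) gave the 250 bases before the transcription start of 7 of the 10 genes. Ccl2, Icam2 and Vcam1 had no window, so whether Ccl2 holds the motif is not known here. The windows are chr5:90890995-90891244 for Cxcl1, chr5:90903649-90903898 for Cxcl2, chr5:92348890-92349139 for Cxcl10 (minus strand) and chr9:21015690-21015939 for Icam1. Capitals mark matches to the NF-kB consensus or to GGAANTTCC, both searched on both strands.
Cxcl1: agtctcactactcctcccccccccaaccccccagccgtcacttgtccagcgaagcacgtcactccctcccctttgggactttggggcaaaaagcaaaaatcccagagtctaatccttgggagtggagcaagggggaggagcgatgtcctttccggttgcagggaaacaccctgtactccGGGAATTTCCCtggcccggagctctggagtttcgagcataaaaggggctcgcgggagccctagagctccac
Cxcl2: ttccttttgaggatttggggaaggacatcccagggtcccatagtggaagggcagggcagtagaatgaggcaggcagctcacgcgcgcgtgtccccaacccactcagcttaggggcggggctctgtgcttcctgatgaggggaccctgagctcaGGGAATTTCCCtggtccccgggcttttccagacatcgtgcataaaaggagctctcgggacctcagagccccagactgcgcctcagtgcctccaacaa
Cxcl10: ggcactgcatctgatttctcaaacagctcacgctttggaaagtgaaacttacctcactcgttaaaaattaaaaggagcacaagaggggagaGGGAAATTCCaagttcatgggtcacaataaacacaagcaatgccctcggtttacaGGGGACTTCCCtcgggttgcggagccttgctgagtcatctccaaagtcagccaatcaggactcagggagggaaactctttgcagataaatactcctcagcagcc
Icam1: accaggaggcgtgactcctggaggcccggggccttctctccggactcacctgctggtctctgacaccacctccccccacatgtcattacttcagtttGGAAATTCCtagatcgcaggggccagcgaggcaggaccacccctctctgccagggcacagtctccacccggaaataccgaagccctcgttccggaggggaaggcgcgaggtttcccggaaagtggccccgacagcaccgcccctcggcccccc
GGAANTTCC, which reads the same on both strands, was in these 4 of the 7 promoters, and in 0.813% of the 32851 RefSeq promoter windows of the same length. The NF-kB consensus, the motif bound by the p50 and p65 subunits, matched in 3 of the 7 (Cxcl1, Cxcl2 and Cxcl10), and in 7.25% of all windows. The motifs overlap each other: the run GGGAATTTCCC of Cxcl1 and Cxcl2 matches both, and lies from base -71 to -61 of Cxcl1 and from -97 to -87 of Cxcl2, counted back from the base before the start. Neither motif was in the windows of Cxcl12, Sele and Selp. Of these, Sele and Selp were also highest in WT stress 1, on 3 and 7 counts. The motifs were chosen after the expression values were seen, and a match describes letters, not binding.

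Stress in WT, which compares the WT stress with the WT mock libraries, had 0 of the 17182 genes tested past an edgeR adjusted p of 0.05 (0%), and 273 at an unadjusted p under 0.05 (1.59%). Of the 10 genes 5 passed the filter on low counts: Cxcl12, Icam1, Icam2, Vcam1 and, only through the WT stress libraries, Ccl2. None of the 5 passed the adjusted threshold in edgeR or DESeq2, and Ccl2 and Icam1 had an unadjusted edgeR p under 0.05. Ccl2 lay at 2.35 ± 2.47 CPM in WT stress and 0.138 ± 0.043 CPM in WT mock (SD, n = 2 each). The log2 fold change was 4.03 ± 1.10 (SE; edgeR unadjusted p = 0.0038, adjusted p = 0.9999). Without WT stress 1 it was 2.09, with the lone WT stress library assumed to vary like the others. The libraries did not overlap for Ccl2 and Icam1, which were higher, and for Cxcl12, which was lower. Over all genes tested 26.7% did not overlap in either direction in this comparison of 2 libraries with 2.

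Without the filter, in a fit of 29446 genes, edgeR called 11 genes for stress in WT, and Ccl2 (adjusted p = 0.0166) and Cxcl1 (log2 fold change 4.20 ± 0.85, SE; adjusted p = 0.0130) were among them. Cxcl2 was not called (edgeR adjusted p = 0.529), nor were Cxcl10, Sele and Selp (edgeR adjusted p = 1.0 each). In that fit the spread of Ccl2 was shared with the other genes at 51888 prior degrees of freedom, against 6.96 with the filter, so its own 8 values had almost no weight in its error. With WT stress 1 left out of the unfiltered fit, Ccl2 (2.09 ± 1.58, SE) and Cxcl1 (1.43 ± 1.72) did not pass (edgeR adjusted p = 1.0 for both).

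In CAA brains stress came with no such counts. Ccl2 had 0 and 4 counts in CAA mock against 1 and 1 in CAA stress, Cxcl1 had 2 and 1 against 0 and 4, and Cxcl2 had none in any CAA library. For stress in CAA edgeR called 0% of the genes tested (1193 genes, or 6.94%, had an unadjusted p under 0.05) and 0 of the 5 recruitment genes, none of which had an unadjusted p under 0.05. For CAA under stress, which compares CAA stress with WT stress, 0.0116% of the genes tested were called and 0 of the 5. An unadjusted p under 0.05 was seen for 8.22% of all genes, and for Ccl2 among the 5. Ccl2 lay at 0.0540 CPM on average in CAA stress, and its log2 fold change against WT stress was -5.28 ± 1.25 (SE; edgeR unadjusted p = 0.0015, adjusted p = 0.579). Without WT stress 1 it was -3.33 (edgeR adjusted p = 0.997). Without the filter Ccl2 (-5.27, edgeR adjusted p = 3.06e-04) and Cxcl1 (-4.53 ± 0.88, SE; edgeR adjusted p = 4.53e-04) passed among 120 genes, and neither passed when WT stress 1 was also left out (edgeR adjusted p = 1.0 for both). The interaction, which asks whether the stress effect differs by genotype, called 0% of the genes tested, and 3.46% had an unadjusted p under 0.05. None of the 5 was called. For Ccl2 it was -5.02 ± 2.07 on the log2 scale (SE; edgeR unadjusted p = 0.0335, adjusted p = 0.995), and -3.07 without WT stress 1. The stress in WT and CAA under stress comparisons share the WT stress libraries.

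WT stress 1 was also the highest library in other inflammatory genes and in blood genes. Among the 16285 genes with at least 10 counts in it, ranked by the ratio of its CPM to the highest of the other 7 libraries, Cxcl1 came first (12.8-fold) and Ccl2 sixth. Hemoglobin genes stood among them: Hba-a1 had 833 counts against 18 to 119 elsewhere, and Hbb-bs had 1020 against 17 to 150. The 9 platelet and red cell markers summed to 120.6 CPM in WT stress 1 and to 5.03 to 19.1 CPM in the others. Hemoglobin gave 2081 of the 2206 counts of that sum. The platelet markers Itga2b and Gp9 were not higher there (33 counts against 33 to 49, and 2 against 0 to 5), Gp1bb had 0 in every library, and Ppbp had 6 against 0 to 1. Alas2, the heme synthesis enzyme of red cell precursors, had 84 counts against 1 to 13. Ccl7 and Ccl12, monocyte attractants 8258 and 64391 bases from Ccl2, had 58 and 31 counts against 0 to 13 and 1 to 8 elsewhere. The cytokine genes Il1b and Il1a, whose products induce these chemokines, had 22 and 18 counts against 0 to 5 and 1 to 6. Tnf had 5 counts against 0 to 1, and Il6 had 7 against 0 to 4. Genes of this paragraph other than the 10 were named after their values were seen, and the part of the blood signal in the chemokine counts was not tested.

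Of the 65 genes with at least 10 counts in WT stress 1 and at least 2-fold above every other library there, 5 were recruitment genes (Cxcl1, Cxcl2, Ccl2, Cxcl10 and Icam1). In each of the other 7 libraries 22 to 101 genes stood out in this way, and none was a recruitment gene. That was largely fixed in advance: a gene that stands out in WT stress 1 cannot do so in another library. Sele and Selp had under 10 counts in every library. Only Cxcl12, Vcam1 and Icam2 could have stood out elsewhere.

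**Figure D3:**
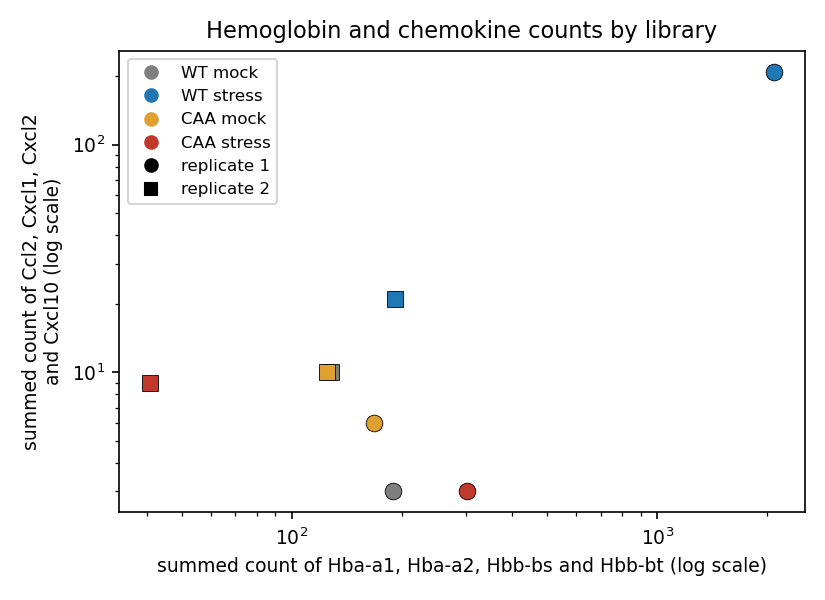
Summed counts of the 4 hemoglobin genes (x axis, log scale) against summed counts of Ccl2, Cxcl1, Cxcl2 and Cxcl10 (y axis, log scale), 1 point per library. WT stress 1 is highest on both axes (2081 and 209), and the other 7 libraries lie at 41 to 301 and 3 to 21.

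Leukocyte genes did not mark WT stress 1 in the same way. The 13 neutrophil markers summed to 9.19 CPM there, within the 6.62 to 13.3 CPM of the other 7 libraries, and 5 of the 13 had no count. The granulocyte surface gene Ly6g had 0 counts in WT stress 1, as in all libraries but CAA mock 2 with 2, and the CXCL1 and CXCL2 receptor gene Cxcr2 also had 0. S100a8 and S100a9, abundant cytosolic genes of neutrophils, had 13 and 10 counts in WT stress 1, and more in CAA mock 2 (28 and 36) and CAA stress 1 (32 and 31). The 12 monocyte and border macrophage markers summed to 17.7 CPM in WT stress 1, to 17.5 in CAA mock 2 and 17.4 in CAA stress 2, and to 7.91 to 12.5 in the rest. Ccr2, the CCL2 receptor gene, had 7 counts in WT stress 1 and 0 to 9 in the others. Of the 10 T and B lymphocyte markers, which summed to 9.62 CPM against 1.99 to 11.8 CPM in the others, Cd4 gave 161 of the 176 counts in WT stress 1. Cd4 was lowest in the 2 libraries low in striatal markers (10 and 5 counts, against 48 to 191 in the other 6), and the sum is mostly that of this gene. The T cell genes Cd3e, Cd3d and Cd8a had 0 counts in WT stress 1 and Cd3g had 1. In bulk brain RNA, fewer cells of a type and less RNA per cell cannot be told apart.

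Icam1 was higher in all 4 stress libraries than in all 4 mock libraries. Icam1 (ENSMUSG00000037405, chr9:21015985-21028817, plus strand) encodes the endothelial ligand of the integrins LFA-1 and Mac-1 and is induced by cytokines. It lay at 1.83 and 1.12 CPM in WT mock, 5.14 and 2.09 in WT stress, 1.52 and 1.41 in CAA mock, and 2.34 and 2.14 in CAA stress. The highest value was again that of WT stress 1, 2.19-fold above the next library, on 94 counts (exact Poisson interval 76.0 to 115.0). Averaged over the genotypes, the mean was 1.47 ± 0.29 CPM in mock and 2.93 ± 1.48 CPM in stress libraries (SD, n = 4 each), a difference that did not pass the test. The log2 fold change was 0.95 ± 0.34 (SE; 95% interval 0.20 to 1.71; edgeR unadjusted p = 0.0181, adjusted p = 0.920). Without WT stress 1 it was 0.56 (edgeR adjusted p = 0.782). For stress averaged, 0% of the genes tested were called, 657 genes (3.82%) had an unadjusted p under 0.05, and 0.954% had all stress libraries above all mock libraries. Of the 5 recruitment genes tested, 0 were called, and Icam1 alone had an unadjusted p under 0.05.

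The stress difference in Icam1 lay the same way in each genotype. In WT it was 1.29 ± 0.48 on the log2 scale (SE; edgeR adjusted p = 0.9999), and 0.50 without WT stress 1. In CAA the mean was 2.24 ± 0.14 CPM under stress and 1.46 ± 0.078 CPM under mock (SD, n = 2), a log2 difference of 0.61 ± 0.49 (SE; edgeR adjusted p = 0.761). In CAA 18.3% of all genes tested had both stress libraries above both mock libraries. The interaction for Icam1 was -0.67 ± 0.69 (SE; 95% interval -2.18 to 0.84; edgeR adjusted p = 0.995), and it reversed to 0.11 ± 0.68 without WT stress 1 (SE; edgeR adjusted p = 0.9997). Icam1 overlaps Gm47079, on the other strand, by 511 bases. That gene had 163 counts over the 8 libraries and at most 27 in any. The gene whose levels ran most like Icam1 over the 8 libraries was Tgm2, the tissue transglutaminase gene (Pearson r of log2 CPM 0.92, among 11117 genes), followed by Tada1 (0.85) and Ube2l6 (0.84). The r describes 8 libraries in which WT stress 1 is extreme for Icam1.

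**Figure D4:**
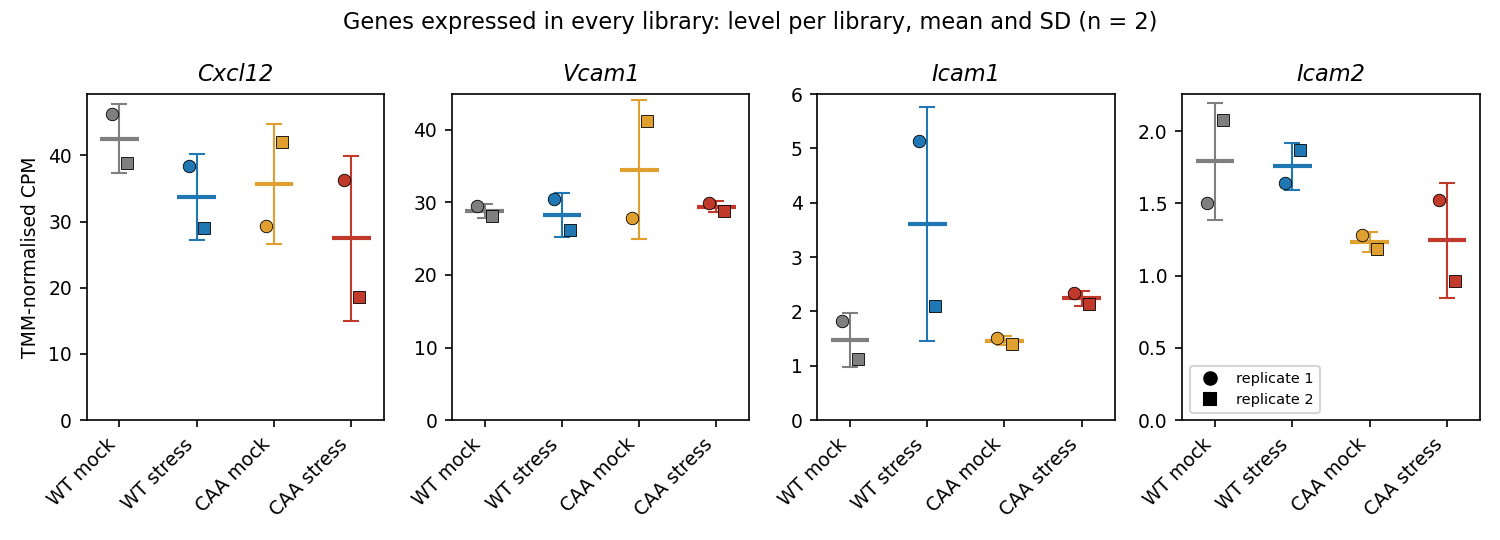
CPM of Cxcl12, Vcam1, Icam1 and Icam2, 1 point per library with the group mean as a line and the SD as a bar (n = 2). For Icam1 the 4 stress libraries (2.09 to 5.14 CPM) lie above the 4 mock libraries (1.12 to 1.83 CPM), and for Vcam1 CAA mock 2 stands at 41.2 CPM.

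Icam2 was lower in CAA than in WT within each treatment, without passing the test. Icam2 (ENSMUSG00000001029, chr11:106377656-106388075, minus strand) encodes a constitutive endothelial ligand of LFA-1. It lay at 1.505 and 2.08 CPM in WT mock, 1.64 and 1.87 in WT stress, 1.28 and 1.18 in CAA mock, and 1.53 and 0.963 in CAA stress. Only CAA stress 1 (1.53 CPM) reached the lowest WT value, 1.505 CPM in WT mock 1. The means were 1.24 ± 0.23 CPM in CAA and 1.77 ± 0.25 CPM in WT (SD, n = 4 each), with a log2 fold change of -0.52 ± 0.33 (SE; 95% interval -1.23 to 0.20; edgeR adjusted p = 0.672). It was -0.53 ± 0.46 under mock (SE; edgeR adjusted p = 0.998) and -0.50 ± 0.46 under stress (SE; edgeR adjusted p = 0.774). In these comparisons of 2 libraries with 2, all CAA libraries lay below all WT libraries for 16.7% of the genes tested under mock and for 20.4% under stress. The average stress difference of Icam2 was -0.01 ± 0.33 (SE; 95% interval -0.72 to 0.71).

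Most endothelial markers leaned the same way on average, but not in every CAA library. Of the 18 endothelial markers 15 were lower in CAA averaged and 3 higher, none past the threshold and none at an unadjusted p under 0.05. The median log2 fold change was -0.16 against 0.00 over all genes tested. Their sum was low in CAA mock 1 and CAA stress 2 (281 and 272 CPM). In CAA mock 2 and CAA stress 1 (379 and 375 CPM) it lay within the WT range of 340 to 415 CPM. As a share of the summed endothelial markers, Icam2 was 0.395% and 0.610% in WT mock, 0.481% and 0.451% in WT stress, 0.456% and 0.312% in CAA mock, and 0.407% and 0.354% in CAA stress. On this scale the CAA and WT libraries overlapped within the mock groups and not within the stress groups. Genes whose log2 CPM ran most like that of Icam2 were Thg1l (r = 0.96), mt-Co2 (0.96) and Mrpl19 (0.94) over the 8 libraries.

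Vcam1 was nearly level. Vcam1 (ENSMUSG00000027962, chr3:116109949-116129688, minus strand), the ligand of the integrin VLA-4, lay at 29.5 and 28.2 CPM in WT mock, 30.5 and 26.2 in WT stress, 27.8 and 41.2 in CAA mock, and 29.9 and 28.8 in CAA stress. CAA mock 2, 1 of the 2 libraries low in striatal markers, stood above the other 7, which spanned 26.2 to 30.5 CPM. The average stress difference was -0.13 ± 0.14 on the log2 scale (SE; 95% interval -0.44 to 0.18; edgeR adjusted p = 0.924), and 0.03 without CAA mock 2. The average CAA difference was 0.16 ± 0.14 (SE; 95% interval -0.15 to 0.47; edgeR adjusted p = 0.767), and -2e-04 without CAA mock 2. Both intervals lie within 0.5 of 0 on the log2 scale. The most similar genes over the 8 libraries were Tma16 (r = 0.93), Npas3 (0.93) and Scarb2 (0.92).

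Cxcl12, the homeostatic chemokine that acts on CXCR4 and is made in brain by endothelium, meninges and neurons, varied between replicates as much as between groups. Cxcl12 (ENSMUSG00000061353, chr6:117168535-117181367, plus strand) lay at 46.2 and 38.8 CPM in WT mock, 38.3 and 29.1 in WT stress, 29.3 and 42.0 in CAA mock, and 36.3 and 18.6 in CAA stress. The lowest library was CAA stress 2 and the highest WT mock 1. The means were 30.6 ± 8.90 CPM under stress and 39.1 ± 7.18 CPM under mock (SD, n = 4 each), a log2 difference of -0.36 ± 0.22 (SE; 95% interval -0.84 to 0.13; edgeR adjusted p = 0.920). It was -0.33 ± 0.30 in WT (SE; edgeR adjusted p = 0.9999), where the libraries did not overlap, and -0.38 ± 0.31 in CAA (SE; edgeR adjusted p = 0.766), where they did. In WT the difference was -0.55 without WT stress 1, -0.15 without WT stress 2, -0.20 without WT mock 1 and -0.04 with a term for sex. The average CAA difference was -0.27 ± 0.22 (SE; edgeR adjusted p = 0.737). With the 2 libraries low in striatal markers left out, the average stress difference was -0.15. Over the 8 libraries 60 genes ran with Cxcl12 at r above 0.9, led by Rab39b, Hikeshi and Lin52 (0.97 each).

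For CAA averaged, 0.0116% of the genes tested were called and 1439 (8.38%) had an unadjusted p under 0.05. None of the 5 recruitment genes was called, and Ccl2 had an unadjusted p under 0.05. Its log2 fold change was -2.77 ± 1.01 (SE; edgeR unadjusted p = 0.0189, adjusted p = 0.577), and -1.79 without WT stress 1. For Icam1 it was -0.35 ± 0.34 (SE; edgeR adjusted p = 0.785), and 0.04 without WT stress 1. For CAA under mock, in which WT stress 1 has no part, 0.0116% of the genes tested were called, 688 (4%) had an unadjusted p under 0.05, and none of the 5 recruitment genes was among either. Cxcl10, which failed the filter, had 4 and 5 counts in CAA mock and 1 and 2 in WT mock, counts too low for a test of that difference (edgeR adjusted p = 1.0 without the filter).

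**Figure D5:**
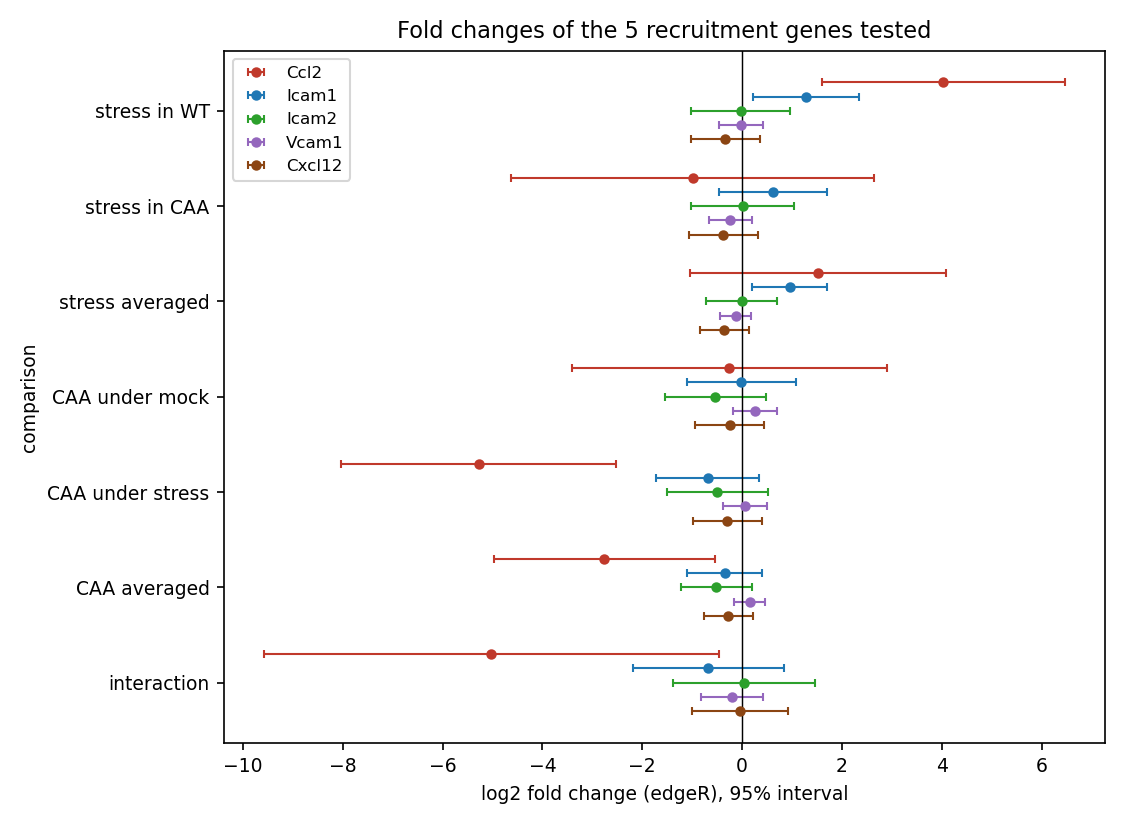
Log2 fold changes of the 5 recruitment genes tested, with 95% intervals as bars, for the 7 comparisons. The points of Ccl2, which has the widest bar of the 5 genes in each comparison, lie at 4.03 for stress in WT and -5.28 for CAA under stress. Those of Vcam1 lie within 0.3 of 0.

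The selectin genes were at the limit of detection. Sele (ENSMUSG00000026582, chr1:164048234-164057677, plus strand) had 3 counts in WT stress 1, 2 in CAA stress 2 and 0 in the other 6 libraries. Selp (ENSMUSG00000026580, chr1:164115264-164150026, plus strand), 57586 bases away, had 7 counts in WT stress 1, 3 in CAA stress 1, 2 in CAA mock 2, 1 in WT mock 2 and 0 in the other 4. The Poisson interval of WT stress 1 was 0.619 to 8.77 counts for Sele and 2.81 to 14.4 for Selp. A count of 0 allows up to 3 counts, or 0.161 to 0.175 CPM. Differences in Sele between groups were not detectable at this depth, and neither gene passed in edgeR without the filter (adjusted p = 1.0 for both in stress in WT).

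Around the 10 genes, none of the members of 5 pathway lists passed in any of the 7 comparisons in edgeR. Of 30 other chemokine ligand genes 12 were tested. For stress in WT 9 were higher and 3 lower, with a median log2 fold change of 0.25 against 0.00 over all genes tested. Of the 12, 2 had an unadjusted edgeR p under 0.05, as did 1.59% of all genes tested. These counts were not repeated without WT stress 1, which was the highest library for Ccl7 (58 counts) and Pf4 (30 counts). For stress in CAA 3 were higher and 9 lower (median -0.21). In the averaged comparisons the smallest unadjusted p values for stress belonged to Ccl7 (2.45 ± 1.22, SE; edgeR adjusted p = 0.920) and Ccl9 (-0.36). Ccl7 had 0 to 2 counts outside WT stress, so it passed the filter through the libraries in which it was high, and its value was 1.73 ± 1.25 without WT stress 1 (SE; edgeR adjusted p = 0.791). For CAA they belonged to Ccl6 (1.13 ± 0.35, SE; edgeR adjusted p = 0.531) and Cx3cl1 (-0.30). Ccl6, a monocyte attractant, had 53 and 104 counts in CAA mock, 25 and 56 in CAA stress and 19 to 29 in the WT libraries. Cx3cl1, the neuronal ligand of the microglial receptor CX3CR1, had 5482 to 10725 counts.

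Of 23 chemokine receptor genes 8 were tested. For stress averaged 5 were higher and 3 lower (median 0.45), and for CAA averaged 2 were higher and 6 lower (median -0.20). Ackr2, a scavenger receptor that removes inflammatory CC chemokines, had 39 and 28 counts in WT mock, 70 and 56 in WT stress, 19 and 36 in CAA mock and 58 and 62 in CAA stress. All 4 stress libraries lay above all 4 mock libraries in Ackr2 (log2 fold change 0.98 ± 0.29, SE; edgeR adjusted p = 0.920), as they did for 0.954% of all genes tested. Ackr2 and Ackr1 are named because they had the smallest unadjusted edgeR p for stress in this list. Ackr1, the atypical receptor that carries chemokines across venular endothelium, had 430 and 564 counts in WT mock, 633 and 646 in WT stress, 449 and 368 in CAA mock and 464 and 842 in CAA stress (0.47 ± 0.19, SE; edgeR adjusted p = 0.920).

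Of 13 genes for the leukocyte side of adhesion (integrin subunits, selectin ligands and L-selectin) 11 were tested. For stress averaged 2 were higher and 9 lower (median -0.19), and for CAA averaged 4 were higher and 7 lower (median -0.01). Itgal, the alpha subunit of LFA-1 that binds ICAM-1 and ICAM-2, had the smallest p for stress (-1.40 ± 0.46, SE). Cd44, a hyaluronan receptor, had it for CAA (0.64 ± 0.24). Of 17 endothelial junction and transmigration genes 15 were tested, 8 higher and 7 lower for stress averaged (median 0.04), and 4 higher and 11 lower for CAA averaged (median -0.12). The smallest p values were those of Plvap, a gene of fenestrated endothelium, for stress (0.44 ± 0.18, SE) and of the sialomucin gene Cd34 for CAA (-0.52 ± 0.18). Of 21 inflammatory inducer genes 15 were tested, 10 higher and 5 lower for stress averaged (median 0.12), and 6 higher and 9 lower for CAA averaged (median -0.02). Tnfaip3, an NF-kB-induced inhibitor of that pathway, had 127 counts in WT stress 1 against 41 to 82 elsewhere. Nfkbia, which encodes the inhibitor IkB-alpha, had 581 counts there, within the 484 to 760 of the others.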

How the data were processed

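RNA of 8 mouse brain samples (total RNA, RNeasy kit, Illumina libraries, per the labels' protocols) was aligned with HISAT2 2.0.5 and counted per gene with featureCounts 1.5.0-p3 on mm10, per the submitters' processing notes. The deposited count table holds raw counts for 54532 genes, and a second deposited table holds FPKM values. Neither the settings nor the annotation release or strandedness is given in the sources used here. Samples were grouped by title. The test on counts was that of edgeR 4.0.16 under R 4.3.3 (quasi-likelihood, robust, TMM, filterByExpr with a minimum count of 10, 17182 genes; 4 group means over 8 libraries with 1 shared spread), two-sided, with Benjamini-Hochberg adjustment over all genes tested and a threshold of 0.05. FPKM served for levels between genes. "Stress averaged" and "CAA averaged" are means of the effects over genotypes and over treatments. With 2 libraries against 2 an exact permutation test cannot go below p = 0.333.

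By rule all 10 genes are named, with a fold change where they passed the filter and the libraries did not overlap. Fold changes of Cxcl12, Vcam1, Icam1 and Icam2 in other comparisons were added. Similar genes are the 3 with the highest Pearson r of log2 CPM among genes of at least 5 CPM. Of each pathway list the 2 genes with the smallest p in the averaged comparisons may be named. The genes, lists, rules and alternatives were chosen with earlier results of these data known. Alternatives were DESeq2 1.42.0 and its size factors, no filter, a replicate block, limma 3.58.1 on log2(FPKM + 1) and log2(FPKM + 0.1), a sex term, subsets of libraries and each library left out. Tests were tried on simulated counts.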

Additional observations from a re-analysis of the deposited data

Results flagged for a closer look

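Samples were looked at in sets of 4 (the WT, CAA, mock and stress libraries) for an extreme library whose gap to its neighbour, divided by the range of the set, was above Dixon's 95% critical value. Of 37 sets 14 had one. The nominal rate for normally distributed values is about 1 in 20 sets, or 1.85, but many of these values are counts near 0. Where all values but 1 are 0 the ratio is 1.0 by construction, and sets of equal values were left out. The sets also share libraries, so 14 against 1.85 is not a test against chance. In 11 of the 14 the library was WT stress 1. Its ratio was 0.875 among the WT and 0.864 among the stress libraries for Ccl2, 0.922 and 0.922 for Cxcl1, 1.0 and 1.0 for Cxcl2, and 0.864 and 0.863 for Cxcl10. It was 0.918 among the stress libraries for Icam1, 0.853 among the WT libraries for Selp and 1.0 among the WT libraries for Sele, there on 3 counts. CAA mock 2 was extreme for Vcam1, with 0.842 among the CAA and 0.872 among the mock libraries. CAA stress 2 was extreme for Sele among the CAA libraries (1.0), on 2 counts.

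The stress difference of Cxcl10 had opposite signs in the 2 genotypes, without overlap of the libraries in CPM. It was 0.4371 in mean CPM in WT and -0.0959 in CAA, on counts of 1 to 16. In raw counts CAA mock 1 and CAA stress 2 tied at 4, so the gap in CAA came only from the scaling to library size. For stress in WT, 26.7% of all genes tested did not overlap in either direction. The difference between the genotypes did not pass in the edgeR fit without the filter (interaction -3.22 ± 1.79 on the log2 scale, SE; adjusted p = 0.9999), and neither did the CAA difference (-0.66 ± 1.24; adjusted p = 0.964). Without WT stress 1 the WT difference was 0.95 ± 1.88 and the interaction -1.60 ± 2.36 (SE; edgeR adjusted p = 1.0 and 0.9999).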

How the results depend on the processing

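No recruitment gene passed in any of the 7 comparisons under any alternative but 1. Without the filter on low counts 2 passed, Ccl2 and Cxcl1, for stress in WT and for CAA under stress (log2 fold changes of Ccl2 4.03 and -5.27). The spread was then estimated almost wholly across genes, as given above, and with WT stress 1 left out as well, an alternative chosen after seeing the data, 0 passed. DESeq2 gave no adjusted p for Ccl2, Icam1 and Icam2 in CAA under stress, nor for Ccl2 in CAA under mock. These were not counted as passing, and the DESeq2 unadjusted p of Ccl2 in CAA under stress was 1.94e-04. Of 17 fold changes tried under 18 or 19 alternatives each, 14 kept their direction in every one. The others reversed when the value neared 0: Vcam1 for stress averaged at 0.0443 without the 2 libraries low in striatal markers and 0.0272 without CAA mock 2, Vcam1 for CAA averaged at -2e-04 without CAA mock 2, and Icam1 for CAA averaged at 0.0423 without WT stress 1. The Icam1 interaction, tried later, reversed to 0.113 without WT stress 1. With 1 library left out Vcam1 ranged from -0.258 to 0.0272 for stress averaged and from -2e-04 to 0.285 for CAA averaged, and Icam1 for CAA averaged from -0.6046 to 0.0423. Icam1 for stress averaged stayed between 0.30 and 1.20 (lowest adjusted p 0.469), and Icam2 for CAA averaged between -0.80 and -0.23. Over all genes the count called for stress averaged (0) was 49 without the filter, 3 with DESeq2, 1 in the 6 male libraries, and 0 to 4 with 1 library left out (1 without WT mock 1, 4 without WT mock 2). For CAA averaged (2) it was 223 without the filter, 46 with DESeq2, 7 in males, 4 without the low-striatum libraries, and 2 to 5 with 1 library left out (5 without WT mock 2). The causes were not tested. Like-numbered libraries correlated at -0.27 to 0.14, so the numbers do not pair them; the replicate block gave 0 recruitment genes, and 0.93 for Icam1 in stress averaged. Outside WT stress 1 counts of 0 to 5 limit Cxcl2, Cxcl10, Sele and Selp.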
